A study of Sus scrofa with 13 samples.

Results

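Genes of fatty acid synthesis, elongation, desaturation and storage were followed in messenger RNA from pig preimplantation embryos, namely ACLY, ACACA, FASN, ELOVL6, ELOVL5, SCD, FADS2, FADS1 and PLIN2. The 9 genes were chosen by gene symbol as members of 1 pathway, with earlier results of these data in view, among them the higher level of FADS1 in IVF than in in vivo blastocysts. For that reason the FADS1 difference between those groups is described here without a test. Its changes at hatching start from the same blastocyst libraries and are also given as a description. All 9 were found among the 28232 genes of the deposited table, each in a single row, and all 9 passed the filter on low counts in both models described below.

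Cells make fatty acids in the cytosol from citrate that leaves the mitochondrion. ATP citrate lyase (ACLY) splits citrate into acetyl-CoA, acetyl-CoA carboxylase (ACACA) turns acetyl-CoA into malonyl-CoA in the committed step, and fatty acid synthase (FASN) joins these units into the saturated fatty acid palmitate. Elongases lengthen fatty acids and desaturases add double bonds, and surplus fatty acid is stored as triglyceride in lipid droplets coated by perilipins. Pig eggs and early embryos are known for their large store of lipid droplets.

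The study compared embryos obtained by in vitro fertilisation (IVF) with embryos that developed in vivo, and compared stages of development. IVF embryos were sequenced as 4-cell embryos, as blastocysts and as hatched blastocysts that had left the zona pellucida, with 3 libraries each. In vivo embryos were sequenced as blastocysts and hatched blastocysts, with 2 libraries each. In vivo 4-cell embryos were not analysed here, so every comparison with 4-cell embryos is within IVF. The sources used here do not give breed, embryo age, culture medium, the number of embryos per library or the sequencing batch, so IVF itself and any such difference between the origins cannot be told apart.

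The 13 libraries held 33259311 to 39273867 counts, and 3 counts, taken as the lowest level that can be read, equalled 0.0764 to 0.0902 CPM, the count scaled to a library total of 1000000. Levels of 1 gene are given in CPM, with the SD between libraries after ±, and levels of different genes are compared only in the authors' FPKM, which divides by transcript length. Libraries of a group are listed by number, and the in vivo hatched library whose count column carried no number comes before library 2. FPKM of in vivo hatched blastocysts are from library 2 alone, with no SD. Blastocyst libraries had 20800 to 38500 CPM summed over 10 trophectoderm markers, against 101 to 859 CPM in 4-cell embryos, whereas 10 egg genes summed to 21600 to 35800 CPM in 4-cell embryos and 8 or more of them averaged under 1 CPM in each blastocyst group. Summed markers of adipocytes were at most 56.9 CPM and those of sperm at most 3.32 CPM, while those of cumulus and granulosa cells reached 325 CPM in IVF hatched blastocysts. Of these 10 markers 6 had no counts there, FSHR and LHCGR among them. IVF 4-cell library 1 stood apart from the other 4-cell libraries in its counts over all genes. In bulk RNA, fewer cells of a type and less RNA per cell cannot be told apart.

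Together the 9 genes made up 0.164% to 0.223% of all counts in 4-cell embryos and 0.266% to 0.653% in blastocysts. Their order by FPKM differed between these stages. In 4-cell embryos ELOVL6, which lengthens palmitate to stearate, led with 286 ± 71.4 FPKM, ahead of the droplet coat protein PLIN2 with 121 ± 37.9 FPKM and of ACACA with 13.6 ± 2.43 FPKM, and FASN was listed at 0. In every blastocyst group PLIN2 led, with 1284 to 2733 FPKM, above 99.8% to 99.9% of the genes listed. By mean FADS1 came next in every blastocyst group and ACACA last, at 0.0788 to 0.449 FPKM. In in vivo blastocysts FADS1 (32.1 to 40.2 FPKM) overlapped SCD (34.1 to 35.5 FPKM). FASN had 1.27 to 2.2 FPKM in these 4 groups.

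**Figure D1:**
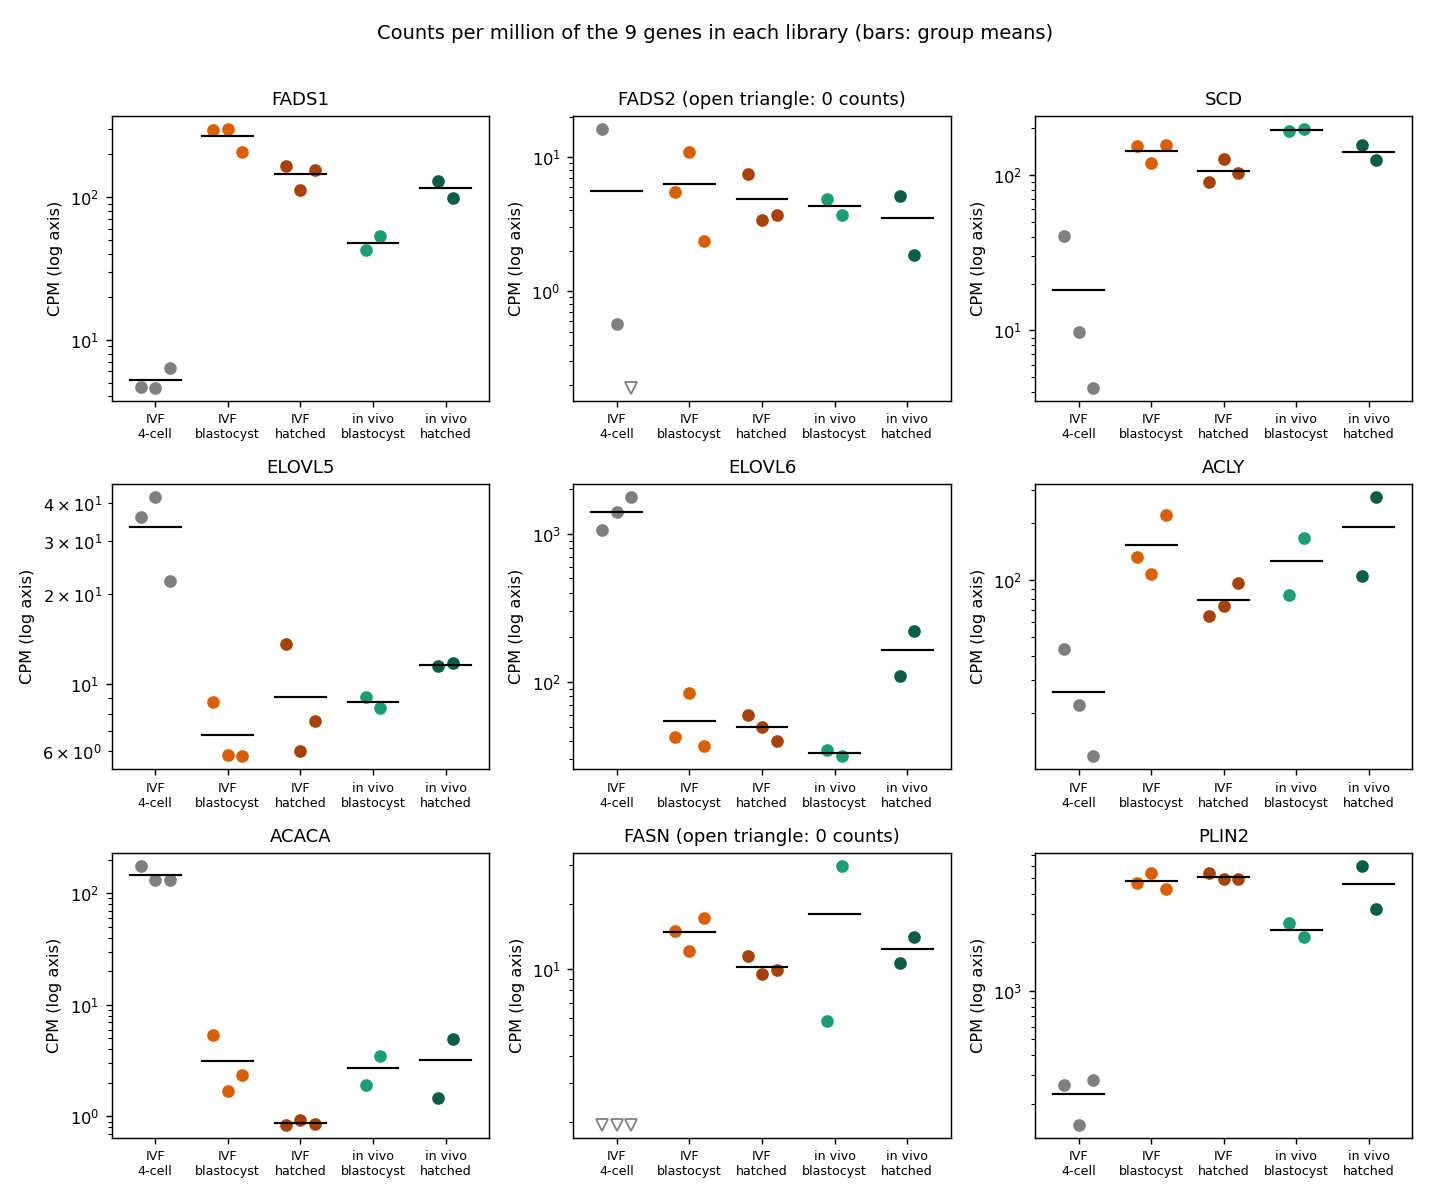
CPM on a log axis for each of the 9 genes, with 1 point per library, grouped as IVF 4-cell, IVF blastocyst, IVF hatched, in vivo blastocyst and in vivo hatched, and with a line at each group mean. ELOVL6 and ACACA are highest in the 4-cell libraries, while FADS1 and PLIN2 are lowest there, and open triangles at the foot of a panel mark libraries with 0 counts (FADS2 in 4-cell library 3, FASN in all 3 4-cell libraries).

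From 4-cell embryos to IVF blastocysts, 5 of the 9 genes rose (FADS1, SCD, FASN, ACLY and PLIN2), 3 fell (ELOVL6, ELOVL5 and ACACA), and FADS2 did not pass. FADS1 is counted here as a description. The edgeR quasi-likelihood test with adjustment over all genes called 56.3% of 16312 genes in this comparison, 25.7% higher and 30.6% lower. In IVF hatched blastocysts the same 5 members rose and the same 3 fell against 4-cell embryos, where 56.6% of genes were called, 25.7% higher and 30.9% lower. Both comparisons use the same 4-cell libraries, so the second is no further evidence. The median log2 fold change of the 9 genes was 2.9 in IVF blastocysts and 1.98 in IVF hatched blastocysts, against -0.23 and -0.24 over all genes tested. A gene's log2 fold changes are followed by their standard error, and adjusted p-values come from edgeR.

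FASN (gene 397561, chromosome 12, 922405 to 937560, Sscrofa11.1) had no counts in any of the 3 4-cell libraries. IVF blastocysts 1 to 3 had 15, 12.2 and 17.2 CPM and IVF hatched blastocysts 11.5, 9.47 and 9.88 CPM. Set against the 3-count floor, FASN was at least 166-fold higher in IVF blastocysts (adjusted p = 5.63e-05) and at least 115-fold higher in IVF hatched blastocysts (adjusted p = 6.06e-05). The synthase message was detected in every blastocyst library and in no 4-cell library at this depth.

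ACACA (gene 397324, chromosome 12, 38580916 to 38875067) ran the other way. It had 177, 132 and 131 CPM in 4-cell embryos, 5.32, 1.7 and 2.34 CPM in IVF blastocysts, and 0.842, 0.932 and 0.856 CPM in IVF hatched blastocysts. The 3 groups did not overlap. ACACA fell by 5.29 ± 0.51 on the log2 scale to IVF blastocysts (adjusted p = 8.49e-05) and by 7.08 ± 0.55 to IVF hatched blastocysts (adjusted p = 3.38e-05). ACACB, which makes malonyl-CoA at the mitochondrion, did not take its place, with ACACA holding 97.8% to 100% of the summed FPKM of both carboxylases in every group.

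ACLY (gene 100125957, chromosome 12, 20796678 to 20841301) had 43.3, 22.2 and 11.8 CPM in 4-cell embryos, 132, 108 and 220 CPM in IVF blastocysts, and 65.2, 73.4 and 97 CPM in IVF hatched blastocysts. Every blastocyst library lay above every 4-cell library. The rise was 2.9 ± 0.45 to IVF blastocysts (adjusted p = 0.000896) and 1.98 ± 0.44 to IVF hatched blastocysts (adjusted p = 0.00476). The cytosolic acetyl-CoA synthetase ACSS2, the other source of acetyl-CoA in that compartment, did not pass against 4-cell embryos (-0.18 ± 0.53, adjusted p = 0.794, in IVF blastocysts). In FPKM, ACLY held 43.2% ± 27.4 of the sum of ACLY and the acetyl-CoA synthetases ACSS1 to ACSS3 in 4-cell embryos and 80.3% to 90.6% in the blastocyst groups.

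The elongase ELOVL6 (gene 100312970, chromosome 8, 112038670 to 112190079) had 1064, 1407 and 1771 CPM in 4-cell embryos. IVF blastocysts had 42.6, 84.6 and 36.8 CPM and IVF hatched blastocysts 59.7, 49.9 and 39.8 CPM, without overlap with the 4-cell libraries. ELOVL6 fell by 4.49 ± 0.50 (adjusted p = 0.00017) and by 4.58 ± 0.50 (adjusted p = 0.000154). ELOVL5 (gene 100171403, chromosome 7, 46860768 to 46932945), which lengthens polyunsaturated fatty acids between the FADS2 and FADS1 steps, had 36.2, 42 and 22 CPM in 4-cell embryos, 8.73, 5.83 and 5.77 CPM in IVF blastocysts, and 13.7, 6 and 7.53 CPM in IVF hatched blastocysts. It fell by 2.03 ± 0.45 (adjusted p = 0.00494) and by 1.57 ± 0.45 (adjusted p = 0.0147), and the second call was lost without 4-cell library 2, IVF hatched library 2 or IVF hatched library 3.

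The desaturases split. SCD (gene 396670, chromosome 14, 111461560 to 111478033), which puts the double bond into stearate to give oleate, had 40.6, 9.74 and 4.27 CPM in 4-cell embryos, 153, 120 and 155 CPM in IVF blastocysts, and 90.7, 126 and 103 CPM in IVF hatched blastocysts. Its rise was 3.36 ± 0.67 (adjusted p = 0.00285) and 3 ± 0.66 (adjusted p = 0.00451). FADS1 (gene 444995, chromosome 2, 9735425 to 9747405), the delta-5 desaturase that completes arachidonate and eicosapentaenoate, had 4.65, 4.6 and 6.29 CPM in 4-cell embryos. IVF blastocysts had 298, 303 and 207 CPM and IVF hatched blastocysts 165, 112 and 156 CPM. FADS1 rose by 5.91 ± 0.41 to IVF blastocysts, a description because their level was known when the genes were chosen. To IVF hatched blastocysts it rose by 5.05 ± 0.39 (adjusted p = 3.35e-05).

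FADS2 (gene 444997, chromosome 2, 9633941 to 9666666), the delta-6 desaturase that acts before FADS1 in the same route, had 16.3, 0.571 and 0 CPM in 4-cell embryos. IVF blastocysts had 5.5, 10.9 and 2.36 CPM and IVF hatched blastocysts 7.41, 3.42 and 3.7 CPM. The 4-cell libraries thus spanned the whole range, and FADS2 did not pass (0.63 ± 1.57, adjusted p = 0.753, and 0.29 ± 1.56, adjusted p = 0.885). Without 4-cell library 1, the one that stood apart, its log2 fold change was 4.78 (adjusted p = 0.0181) in IVF blastocysts and 4.44 (adjusted p = 0.0227) in IVF hatched blastocysts. FADS2 counts are uncertain for another reason: its span overlaps the long noncoding genes LOC106509334 and LOC100739565, the overlapping genes reached 157% of the FADS2 level in 1 library, and the sources used here do not say whether counting used strand.

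PLIN2 (gene 397402, chromosome 1, 203683867 to 203709277), which coats lipid droplets and is degraded when it is not bound to one, had 262, 148 and 280 CPM in 4-cell embryos. It had 4706, 5400 and 4274 CPM in IVF blastocysts and 5414, 4954 and 4972 CPM in IVF hatched blastocysts, far outside the 4-cell range. The rise was 4.61 ± 0.39 (adjusted p = 4.77e-05) and 4.74 ± 0.39 (adjusted p = 4.08e-05). Among the 5 perilipins PLIN2 held 88.5% ± 6.91 of summed FPKM in 4-cell embryos and 98.3% to 98.9% in the blastocyst groups. PLIN5, a perilipin that ties droplets to mitochondria, held 8.73% ± 4.2 in 4-cell embryos and fell by 4.67 ± 0.95 to IVF blastocysts (adjusted p = 0.00316).

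**Figure D2:**
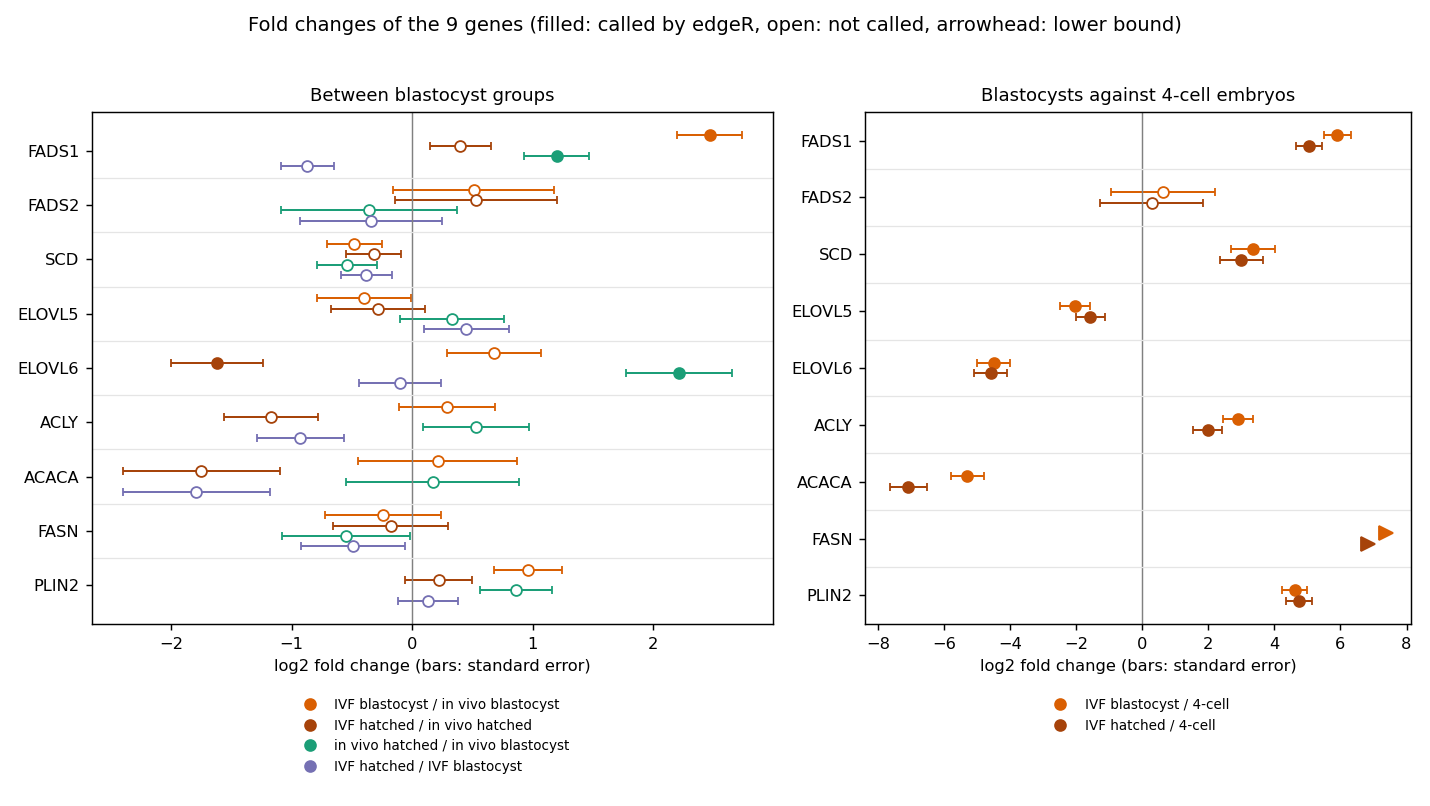
Log2 fold changes of the 9 genes with their standard errors, between blastocyst groups on the left and of IVF blastocysts and IVF hatched blastocysts against 4-cell embryos on the right, filled where edgeR called the gene, and drawn as an arrowhead at the lower bound where 4-cell libraries had 0 counts. On the left FADS1 stands at 2.47 in IVF against in vivo blastocysts and ELOVL6 at 2.21 in vivo and -1.62 between hatched groups, while SCD, ELOVL5, FADS2 and FASN lie between -0.55 and 0.53.

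Between IVF and in vivo blastocysts FADS1 was the 1 member called. It was known to differ when the genes were chosen, so its call is no test and its values are a description. In vivo blastocysts 1 and 2 had 42.7 and 53.4 CPM, below each of the IVF blastocysts at 298, 303 and 207 CPM. The log2 fold change was 2.47 ± 0.27, and it was 2.37 to 2.63 under the alternatives. It was not called in the fit of all 13 libraries. Of 15528 genes tested 10.8% were called in this comparison, 6.09% higher and 4.74% lower in IVF. A member count that rests on FADS1 cannot be set against that share. The members' median was 0.29, against 0.05 over all genes tested.

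The storage gene PLIN2 came next. It had 2641 and 2164 CPM in vivo, below the 4274 to 5400 CPM of IVF blastocysts, a log2 fold change of 0.96 ± 0.28 (adjusted p = 0.0523) that lay just outside the threshold. SCD, in contrast, had 191 and 199 CPM in vivo, above the 120 to 155 CPM of IVF blastocysts, and did not pass (-0.48 ± 0.23, adjusted p = 0.199). ELOVL6 had 35 and 31.5 CPM in vivo, below the 36.8 to 84.6 CPM after IVF, and did not pass (0.68 ± 0.39, adjusted p = 0.281).

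The 3 genes of the synthesis route proper overlapped between origins. ACLY had 83.2 and 168 CPM in vivo (0.29 ± 0.40, adjusted p = 0.704), ACACA 1.93 and 3.45 CPM (0.21 ± 0.66, adjusted p = 0.881), and FASN 5.82 and 29.9 CPM (-0.24 ± 0.48, adjusted p = 0.803). The FASN libraries of in vivo blastocysts lay on both sides of the 3 IVF blastocysts. FADS2, with 4.86 and 3.69 CPM in vivo, and ELOVL5, with 9.09 and 8.38 CPM, also overlapped the IVF range and did not pass (adjusted p = 0.683 and 0.55).

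In hatched blastocysts ELOVL6 was the 1 member called between origins, and it was lower after IVF. In vivo hatched blastocysts had 109 and 220 CPM, above the 59.7, 49.9 and 39.8 CPM of IVF hatched blastocysts. The log2 fold change was -1.62 ± 0.38 (adjusted p = 0.0191). The call was lost without in vivo hatched library 2, where the value was the least of all alternatives at -1.11, or without IVF hatched library 3. Of all genes 11.8% were called, 6.96% higher and 4.88% lower after IVF, and the members' median was -0.28 against 0.04. Among the blastocyst groups summed hypoblast markers, like ELOVL6, were highest in in vivo hatched blastocysts, at 4690 to 10900 CPM. They were 434 to 1060 CPM in IVF hatched blastocysts, 449 to 984 CPM in IVF blastocysts and 818 to 1720 CPM in in vivo blastocysts. In vivo blastocysts had the lowest ELOVL6 mean but not the lowest marker sums. In 4-cell embryos, where ELOVL6 was highest, the markers summed to 313 to 381 CPM. Of 12 hypoblast markers 10 were lower after IVF, and the part of this cell layer in the ELOVL6 difference was not tested.

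FADS1 had 131 and 99.4 CPM in in vivo hatched blastocysts and 165, 112 and 156 CPM in IVF hatched blastocysts. The groups overlapped, with 1 in vivo library inside the IVF span and the other below it, and FADS1 did not pass (0.40 ± 0.25, adjusted p = 0.325). ACLY had 106 and 274 CPM in vivo, above the 65.2 to 97 CPM of IVF, and ACACA 1.45 and 4.93 CPM, above the 0.842 to 0.932 CPM of IVF. Neither passed (ACLY -1.17 ± 0.39, adjusted p = 0.077, and ACACA -1.75 ± 0.65, adjusted p = 0.108). Without the unnumbered in vivo library ACLY was called, at -1.68. PLIN2 had 5999 and 3206 CPM in vivo on both sides of the IVF libraries (0.22 ± 0.28, adjusted p = 0.661). SCD, with 157 and 125 CPM in vivo, FASN, with 10.7 and 14.1 CPM, ELOVL5, with 11.5 and 11.8 CPM, and FADS2, with 5.16 and 1.85 CPM, overlapped the IVF range (adjusted p from 0.406 to 0.854).

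From blastocyst to hatched blastocyst in vivo, FADS1 and ELOVL6 rose, 2 of the 9 genes, where 14.3% of all genes were called, 6.96% higher and 7.39% lower. The FADS1 blastocyst level was known beforehand, so only ELOVL6 can be set against that share. FADS1 went from 42.7 and 53.4 CPM to 131 and 99.4 CPM (1.2 ± 0.27), a call that was lost without in vivo blastocyst library 1 or without the unnumbered hatched library. This FADS1 change starts from the low in vivo blastocyst level known when the genes were chosen, so it is a description. ELOVL6 went from 35 and 31.5 CPM to 109 and 220 CPM (2.21 ± 0.44, adjusted p = 0.00782) and kept its call without any 1 library. PLIN2 went from 2641 and 2164 CPM to 5999 and 3206 CPM, did not pass (0.86 ± 0.30, adjusted p = 0.0802), and was called without hatched library 2. SCD had 191 and 199 CPM before and 157 and 125 CPM after hatching (-0.54 ± 0.25, adjusted p = 0.173). The remaining 5 had adjusted p from 0.452 to 0.916, and the median of the 9 was 0.33 against -0.01.

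Marker sums of several cell types also differed between in vivo blastocysts and in vivo hatched blastocysts. Of 12 hypoblast markers 7 were higher in hatched blastocysts and none lower. The 10 cumulus and granulosa markers in the table summed to 3.37 to 8.92 CPM in in vivo blastocysts and 106 to 181 CPM in in vivo hatched blastocysts, and to 8.52 to 110 CPM and 88.5 to 325 CPM in the IVF groups. Of the 3 tested, 2 were higher at in vivo hatching, the steroid synthesis genes CYP11A1 (adjusted p = 0.0101) and STAR (adjusted p = 0.0337). The granulosa receptor genes FSHR and LHCGR had no counts in any blastocyst group. Whether the sums come from cumulus or granulosa cells was not tested. Markers of pluripotent inner cells summed to 871 to 911 CPM before and 422 to 599 CPM after hatching in vivo. The part of these cells in the rises of FADS1 and ELOVL6 was not tested.

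In IVF embryos no member was called between blastocysts and hatched blastocysts by edgeR, where 0 genes were higher and 0.0451% of genes lower, 7 in all, and 594 genes had an unadjusted p under 0.05. Among the members 3 had an unadjusted p under 0.05, and DESeq2 called 1. FADS1 went from 298, 303 and 207 CPM to 165, 112 and 156 CPM without overlap (-0.87 ± 0.22), and this was the gene that DESeq2 called. It starts from the high IVF blastocyst level known when the genes were chosen, so it is a description. ACACA (-1.79 ± 0.61, unadjusted p = 0.0128) and ACLY (-0.93 ± 0.36, unadjusted p = 0.0246) were also lower in each hatched library than in each unhatched one, with adjusted p = 1. ELOVL6, at 42.6, 84.6 and 36.8 CPM before and 59.7, 49.9 and 39.8 CPM after, overlapped (-0.1 ± 0.34, adjusted p = 1).

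The hatching change itself differed between IVF and in vivo embryos for 2 of the 9 genes, FADS1 and ELOVL6, both more negative in IVF. Of all genes 4.71% were called in this test of the difference, 2.79% higher and 1.93% lower. Only ELOVL6 can be set against these shares. FADS1 differed by -2.07 ± 0.35, and since this contains the blastocyst difference known beforehand it is a description. The FADS1 difference was -2.31 to -1.8 under the alternatives, and it was not called in the fit of all 13 libraries. ELOVL6 differed by -2.31 ± 0.55 (adjusted p = 0.0384) and lost its call in 8 of the 10 fits that left out 1 library. ACACA (-1.96 ± 0.94, adjusted p = 0.249), ACLY (-1.46 ± 0.57, adjusted p = 0.164) and PLIN2 (-0.74 ± 0.39, adjusted p = 0.296) did not pass, and SCD, FASN, ELOVL5 and FADS2 had differences between 0.02 and 0.17 (adjusted p from 0.829 to 1).

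Across the 5 groups, FADS1 was ordered IVF blastocyst, IVF hatched, in vivo hatched, in vivo blastocyst and 4-cell, and IVF hatched and in vivo hatched were the 1 neighbouring pair whose libraries overlapped. Its highest group mean was 52 times its lowest. ACACA had the widest span of the 8 genes with counts in every group, 167 times, and FADS2 the narrowest, 1.78 times, with all neighbours overlapping. For FASN the 4 blastocyst groups overlapped from neighbour to neighbour, between means of 17.9 and 10.3 CPM. PLIN2 separated 4-cell embryos, then in vivo blastocysts, from the other 3 groups, which overlapped.

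The make-up of each enzyme family shows the switch between stages on a scale per length. ELOVL6 held 89.4% ± 2.54 of the summed FPKM of the 7 ELOVL elongases in 4-cell embryos and 13.6% ± 7.33 in IVF blastocysts. ELOVL1, which lengthens very long saturated fatty acids, went from 1.72% ± 2.32 to 79.1% ± 6.28, and in CPM from 6.9 ± 8.61 to 103 ± 23.9 (4.33 ± 1.01, adjusted p = 0.00625). In in vivo embryos the ELOVL6 share was 8.73% ± 2.12 in blastocysts and 36.7% in hatched blastocysts, the second from 1 library, while ELOVL1 did not pass between these groups (-0.13 ± 0.25, adjusted p = 0.782). ELOVL2 and ELOVL4, elongases of very long polyunsaturated chains, fell from 4-cell embryos to IVF blastocysts (-4.77 ± 1.56, adjusted p = 0.0276, and -4.52 ± 1.29, adjusted p = 0.0153). ELOVL7 had no counts in 4-cell embryos and 5.64 ± 3.49 CPM in IVF blastocysts.

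Among FADS1, FADS2, SCD and SCD5, FADS1 held 87.2% ± 2.17 of summed FPKM in IVF blastocysts, 82.6% ± 4.5 in IVF hatched blastocysts, 76.1% in the in vivo hatched library and 48.9% ± 3.64 in in vivo blastocysts. The SCD share was 47.3% ± 2.6 in blastocysts from in vivo embryos, against 8.25% to 14.4% in the 3 IVF blastocysts. Much of this gap follows FADS1 in the same sum, at 36.1 ± 5.7 FPKM in vivo and 203 ± 40.7 FPKM after IVF. SCD itself had 34.8 ± 0.996 and 25 ± 3.3 FPKM and did not pass between these groups. FADS2 held 1.23% to 3.88% in the blastocyst groups. Counts of FADS1 were 8.78 to 87.7 times those of FADS2 in the blastocyst libraries, and 0.285 and 8.05 times in 4-cell libraries 1 and 2. SCD5 was at most 0.196% of the 4 genes in any blastocyst group.

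**Figure D3:**
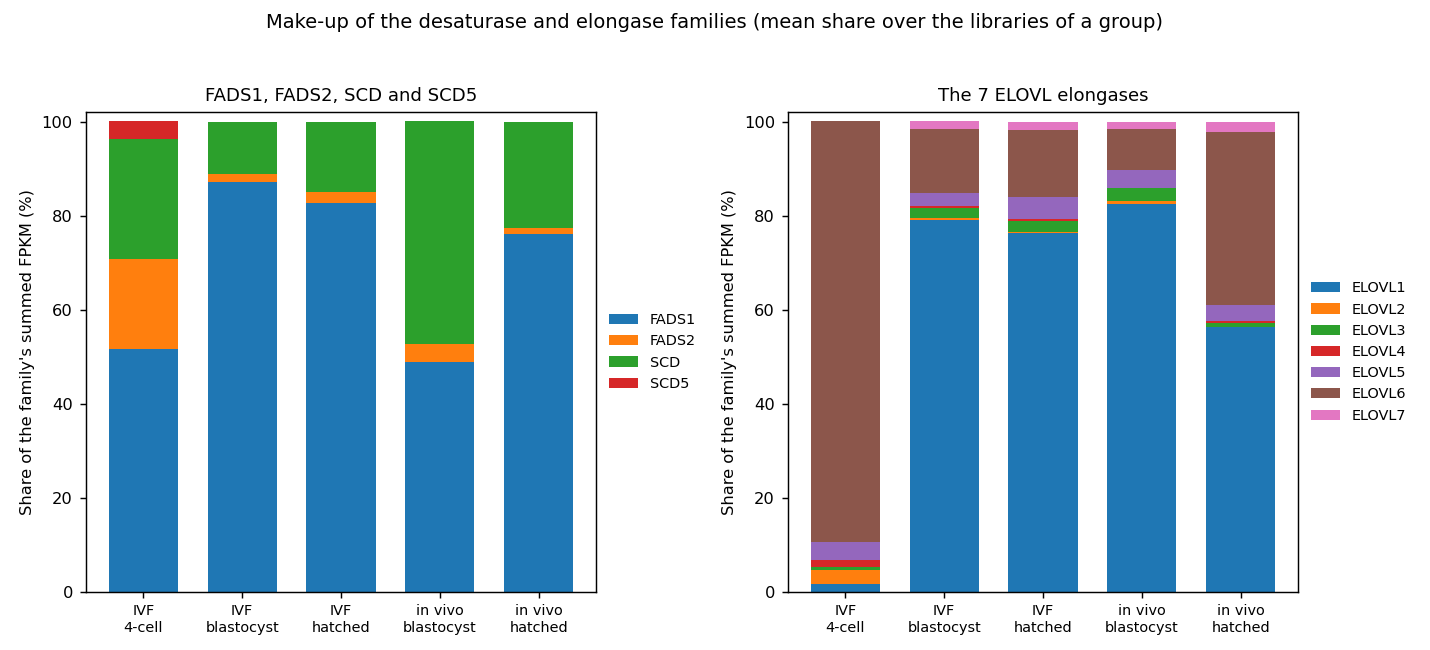
Mean share of each gene in the summed FPKM of its family, in percent, for 4 fatty acyl desaturases (left) and the 7 ELOVL elongases (right) in the 5 groups, with 1 library for in vivo hatched blastocysts. ELOVL6 fills 89.4% of the elongase bar in 4-cell embryos and ELOVL1 56.3% to 82.4% in the blastocyst groups, and SCD takes 47.3% of the desaturase bar in in vivo blastocysts. A share also moves with the other genes of its bar.

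FADS1 and FADS2 are neighbours on chromosome 2, with 68758 bases between them, and 11 other annotated genes lie within 100 kb of either. FADS3, another desaturase-like gene of this cluster, had 0.504 ± 0.466 CPM in 4-cell embryos and 417 ± 57.5 CPM in IVF blastocysts (9.96 ± 1.16, adjusted p = 0.000224). Unlike FADS1, FADS3 did not pass between IVF and in vivo blastocysts, where it had 542 ± 38.6 CPM in vivo (-0.41 ± 0.20, adjusted p = 0.212), and the 2 genes' differences were not tested against each other. Of the 10 neighbours tested there, 2 were higher after IVF, RAB3IL1 (1.56 ± 0.38, adjusted p = 0.0263) and DAGLA, which makes the lipid messenger 2-arachidonoylglycerol (3.73 ± 0.82, adjusted p = 0.0175), and the ferritin heavy chain gene FTH1 was lower (-1.48 ± 0.24, adjusted p = 0.00566). All 3 calls were lost without in vivo blastocyst library 1. Over all genes tested, 6.09% were higher and 4.74% lower in IVF blastocysts there. Against 4-cell embryos, 7 of 9 neighbours tested were higher in IVF blastocysts and none lower, where 25.7% of all genes tested were higher and 30.6% lower.

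Likeness of pattern was measured over all 13 libraries as the root mean square difference in log2 CPM, each gene centred on its own mean, among 9994 genes. The nearest to FADS1 were NME2 (0.44), LOC100737436 (0.45) and ACTN1 (0.53), against a median of 2.22 over all genes. PLIN2 had ACBD6 (0.3), TMEM115 (0.31) and ERP29 (0.31), and SCD had PUS1 (0.24), MRPS6 (0.25) and TXN2 (0.25). ELOVL6 was nearest to NAT10 (0.38), NDRG3 (0.46) and HSPA4L (0.48), and FASN to FAM83H (0.39), ZNF692 (0.44) and LOC100512341 (0.45). For ACLY these were VWA8, MSANTD2 and IARS (0.44 to 0.46), for ELOVL5 HEATR1, PPP4R2 and SLX4IP (0.34 to 0.36), for ACACA FYN, PHYHIPL and ZNF283 (0.64 to 0.67), and for FADS2 ATG9B, SCO2 and AP4M1 (0.64 to 0.71). The 13 libraries span both stages, between which 56.3% of genes were called.

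**Figure D4:**
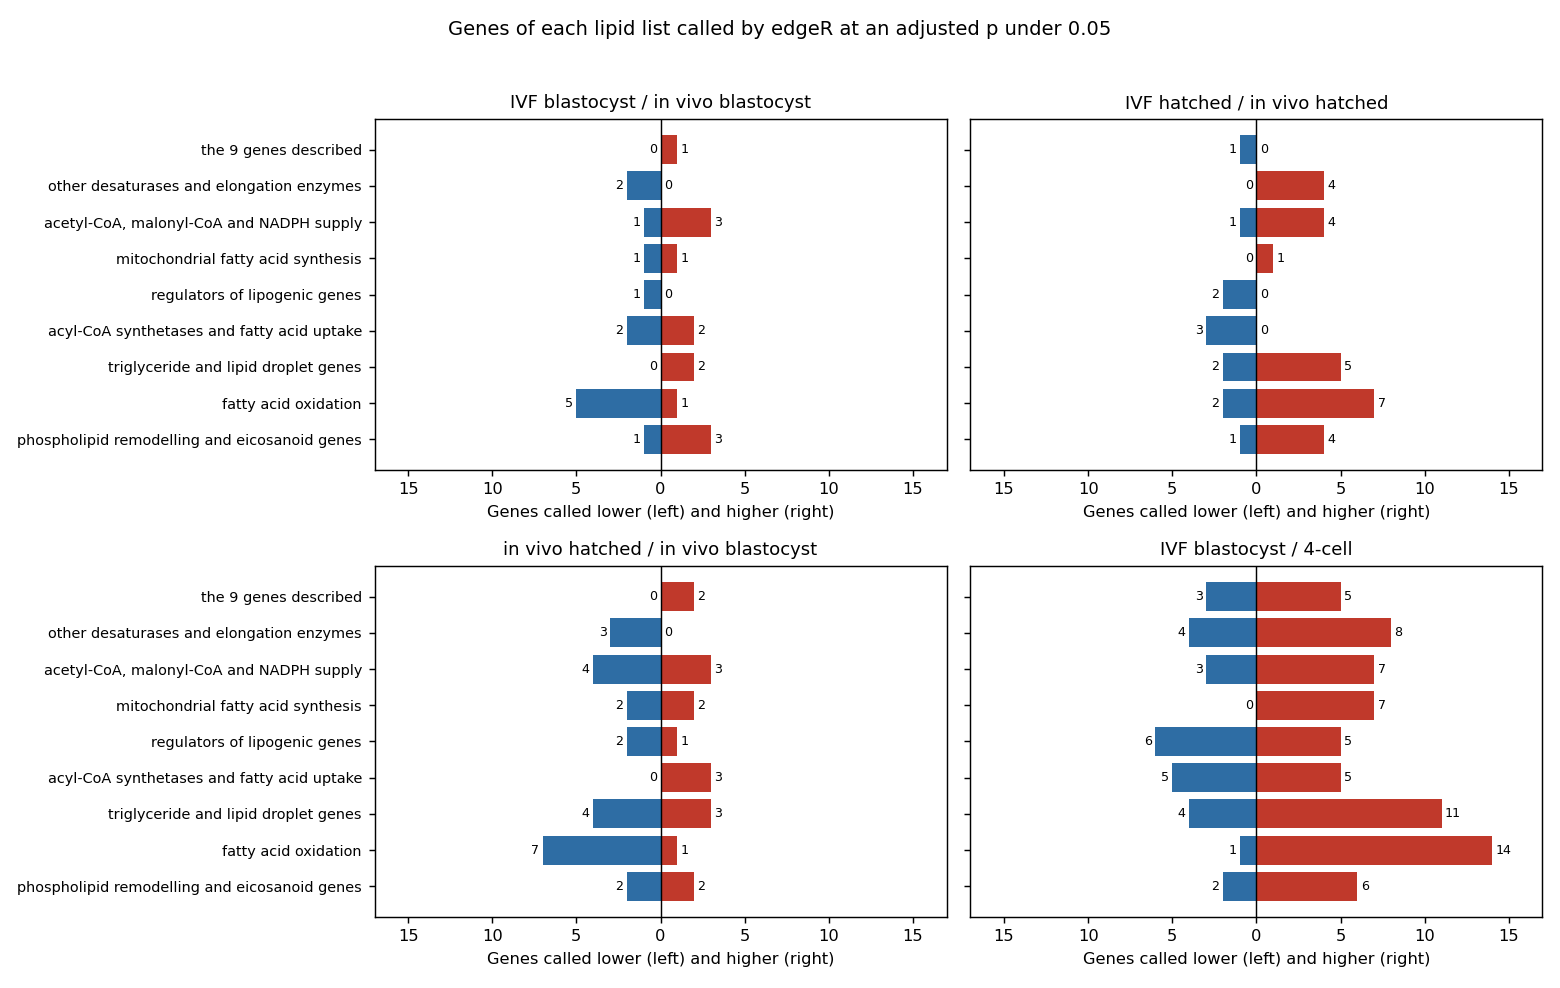
Number of genes of each lipid list that edgeR called lower (left, blue) and higher (right, red) in 4 comparisons. Fatty acid oxidation has 5 lower and 1 higher in IVF against in vivo blastocysts, 2 lower and 7 higher between hatched groups, 7 lower and 1 higher at hatching in vivo, and 1 lower and 14 higher in IVF blastocysts against 4-cell embryos. Over all genes tested, 10.8%, 11.8%, 14.3% and 56.3% were called in these comparisons, in this order.

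Other genes of lipid metabolism were read from 8 lists. From 4-cell embryos to IVF blastocysts, 8 of 19 tested genes of the other desaturases and elongation enzymes rose and 4 fell. In that step 25.7% of all genes tested rose and 30.6% fell. TECR, the reductase of the last elongation step, went from 5.63 ± 2.54 to 227 ± 16.8 CPM (5.63 ± 0.35, adjusted p = 1.78e-05), and the electron carrier reductase CYB5R1 from 11.2 ± 6.43 to 103 ± 14.7 CPM. Of 17 genes that supply acetyl-CoA, malonyl-CoA and NADPH, 7 rose and 3 fell. SLC25A1, which exports citrate from the mitochondrion, went from 11 ± 7.35 to 360 ± 55.8 CPM (5.32 ± 0.55, adjusted p = 0.000119), and pyruvate carboxylase PC from 4.93 ± 2.68 to 141 ± 22.5 CPM. Mitochondrial fatty acid synthesis, a separate route that feeds lipoate, rose in 7 of 9 genes with none lower. Its acyl carrier NDUFAB1 went from 3.11 ± 2.08 to 434 ± 71.4 CPM (7.45 ± 0.68, adjusted p = 6.52e-05) and its transferase MCAT from 1.34 ± 0.945 to 35.2 ± 4.01 CPM.

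Fatty acid oxidation rose in 14 of 26 genes and fell in 1 over the same step, where 25.7% of all genes tested rose and 30.6% fell. ECHS1, a hydratase of the oxidation cycle, went from 11.5 ± 1.19 to 396 ± 62.6 CPM (5.36 ± 0.30, adjusted p = 1.65e-05), ACADS, which oxidises short chains, from 9.2 ± 4.84 to 198 ± 13.3 CPM, and the isomerase ECI1 from 1.31 ± 0.934 to 248 ± 45.5 CPM. Of 26 triglyceride and lipid droplet genes 11 rose and 4 fell. The droplet fusion gene CIDEC had no counts in 4-cell embryos and 16.6 ± 2.19 CPM in IVF blastocysts, and the acyltransferases AGPAT5 (5.02 ± 0.52, adjusted p = 0.000117) and GPAT3 (3.46 ± 0.38, adjusted p = 0.000159) rose. Acyl-CoA synthetases and uptake genes were divided, with 5 of 15 higher and 5 lower. The fatty acid carrier FABP3 went from 109 ± 43.9 to 1737 ± 139 CPM and the transporter SLC27A4 from 6.37 ± 3.02 to 363 ± 124 CPM, while the synthetase ACSL3 went from 630 ± 112 to 28.9 ± 5.62 CPM (-4.24 ± 0.39, adjusted p = 6.79e-05).

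Genes that use the products of FADS1 were among 6 of 18 phospholipid and eicosanoid genes that rose from 4-cell embryos to IVF blastocysts, with 2 lower. Over all genes tested, 25.7% rose and 30.6% fell. LPCAT3, which places arachidonate into phospholipids, went from 19.9 ± 7.83 to 986 ± 21.8 CPM (5.92 ± 0.37, adjusted p = 1.76e-05). Cyclooxygenase PTGS2 went from 0.159 ± 0.163 to 1285 ± 302 CPM, and the prostaglandin E synthase PTGES from 41.4 ± 30.1 to 3239 ± 526 CPM (6.56 ± 0.74, adjusted p = 0.00019). PTGES and PTGS2 did not pass between IVF and in vivo blastocysts (0.87 ± 0.27, adjusted p = 0.0628, and -0.44 ± 0.24, adjusted p = 0.271). Of 24 regulators of lipogenic genes, 5 rose and 6 fell. The nuclear receptor PPARG, a driver of fat storage in adipocytes, fell from 37.2 ± 11.5 to 5.26 ± 0.932 CPM, SREBF1, which switches on many of the 9 genes in liver, went from 1.44 ± 0.735 to 18.7 ± 11.4 CPM (3.86 ± 0.74, adjusted p = 0.00239), and INSIG1, which retains its protein in the endoplasmic reticulum, from 20.8 ± 5.87 to 168 ± 41.7 CPM.

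Between IVF and in vivo blastocysts most listed genes did not pass, and 6.09% of all genes tested were higher and 4.74% lower after IVF. Fatty acid oxidation had 5 lower and 1 higher of 26 genes, with ACADL, which oxidises long chains, at 344 ± 181 CPM in vivo and 33.8 ± 4.68 CPM after IVF (-3.41 ± 0.43, adjusted p = 0.00326) in a call that held without any 1 library. ECI1 (-1.27 ± 0.24, adjusted p = 0.00935) was lower and ECI2 (1.65 ± 0.34, adjusted p = 0.0137) higher, both lost without in vivo blastocyst library 1. Of the desaturases and elongation enzymes TECR (-0.97 ± 0.21, adjusted p = 0.0162) and the ceramide desaturase DEGS2 (-1.99 ± 0.37, adjusted p = 0.00949) were lower, also lost without that library. ME2 was higher and IDH2 lower, among 3 higher and 1 lower of 18 supply genes. Of 25 triglyceride and droplet genes 2 were higher, HILPDA, a lipase inhibitor on droplets (1.99 ± 0.50, adjusted p = 0.0279), and the acyltransferase GPAT4 (1.72 ± 0.44, adjusted p = 0.0321). Of 18 phospholipid genes 3 were higher, MBOAT7 and MBOAT2 among them, and LPCAT2 was lower. Of the 24 regulators 1 was lower, the protease MBTPS2, and SREBF1 did not pass (0.87 ± 0.58, adjusted p = 0.362). The calls of IDH2, HILPDA, GPAT4, MBOAT7, MBOAT2, LPCAT2, MBTPS2 and ME2 were likewise lost without in vivo blastocyst library 1. Some of these calls, IDH2, MBTPS2 and HILPDA among them, were also lost when an IVF blastocyst library was left out.

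In hatched blastocysts fatty acid oxidation stood the other way, with 7 of 26 genes higher after IVF and 2 lower. Over all genes tested, 6.96% were higher and 4.88% lower after IVF. ECI2 (2.35 ± 0.35, adjusted p = 0.00216), ACADVL (1.05 ± 0.20, adjusted p = 0.00751) and ECHS1 (1.15 ± 0.22, adjusted p = 0.00772) were higher, and CPT1A, which admits long chains into the mitochondrion, lower (-1.79 ± 0.35, adjusted p = 0.00819). Of 25 triglyceride and droplet genes 5 were higher and 2 lower. LPIN1, a phosphatidate phosphatase, had no counts in in vivo hatched libraries and 1.92 ± 0.436 CPM after IVF, at least 23.1-fold higher (adjusted p = 0.00181), and the lipase LIPE went from 3.9 ± 1.5 to 23.9 ± 4.91 CPM. The acyl-CoA synthetases ACSL3 (-2.29 ± 0.32, adjusted p = 0.00159) and ACSL1 (-1.45 ± 0.33, adjusted p = 0.0176) were lower, among 3 lower and none higher of 16. ACSS2 was lower too (-1.82 ± 0.40, adjusted p = 0.0144), with NADPH-forming ME1 higher (2.16 ± 0.41, adjusted p = 0.00714). HACD1, a dehydratase of elongation (4.49 ± 0.56, adjusted p = 0.000772), and FAXDC2 (1.91 ± 0.31, adjusted p = 0.00328) were among 4 of 19 elongation and desaturation genes higher, with none lower. ACADVL, ECHS1, LIPE, ACSL1 and ACSS2 lost their calls without in vivo hatched library 2.

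Between in vivo blastocysts and in vivo hatched blastocysts 7 of 26 oxidation genes fell and 1 rose, where 7.39% of all genes tested fell and 6.96% rose. ACADVL was at -1.5 ± 0.22 (adjusted p = 0.0019), ECI1 at -1.79 ± 0.27 (adjusted p = 0.00232) and HSD17B4, of peroxisomal oxidation, at 1.63 ± 0.20 (adjusted p = 0.000969). DEGS2 (-4.08 ± 0.46, adjusted p = 0.000813) and HACD1 (-4.69 ± 0.58, adjusted p = 0.000904) fell, as did the citrate carrier SLC25A1 (-1.3 ± 0.23, adjusted p = 0.00526), while ACSL3 rose (1.97 ± 0.37, adjusted p = 0.00607). INSIG1 fell at hatching in both origins, from 181 ± 30.5 to 26.6 ± 5.4 CPM in vivo (-2.84 ± 0.34, adjusted p = 0.000889) and from 168 ± 41.7 to 21.5 ± 6.19 CPM in IVF (-2.93 ± 0.28, adjusted p = 0.00237). It was the 1 gene of the 8 lists called at IVF hatching, and the difference of its hatching changes was -0.08 ± 0.41 (adjusted p = 0.949). SREBF1 and SREBF2 did not pass at hatching in either origin (adjusted p from 0.161 to 1).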

How the data were processed

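Libraries were poly(A) RNA read as pairs of 150 bases. The authors deposited 1 table on the pig genome Sscrofa11.1 with read counts and FPKM per gene and library, and 14 further columns were not used, 1 of them the FPKM of in vivo hatched library 1, because its count column carried no number to match. Tools listed in the submitters' processing notes, without their roles, are RSEM, StringTie 1.3.1, HISAT2, Bowtie2 and fastp 0.18.0. How reads were counted, rounded and assigned to strands is not stated in the labels or the file. The deposited FPKM served for levels between genes only. CPM is a count scaled to a library total of 1000000. Counts were tested with edgeR 4.0.16 (R 4.3.3; filterByExpr, TMM scaling, quasi-likelihood, two-sided, Benjamini-Hochberg over all genes, called at adjusted p under 0.05) in 1 fit of the 10 blastocyst and hatched libraries (15528 genes) and 1 of the 9 IVF libraries (16312 genes). DESeq2 1.42.0, other scaling, no filter, other sets of libraries and leaving out each library were alternatives, and the scripts were tested on simulated data. The labels do not say that libraries of a group came from separate animals, so p-values measure the spread between libraries, which may be technical. Of the gene IDs, 28208 were found in the RefSeq table of the same build, which gave positions and neighbours. Sequences were not analysed here. The members and the lists were chosen with earlier results of these data known. Named besides the members were up to 3 called genes of smallest p per list and comparison, the 3 genes nearest in pattern and the neighbours within 100 kb. ACSS2, ELOVL1, ELOVL2, ELOVL4, ELOVL7, PLIN5, ACACB, SCD5, CPT1A, SREBF1, SREBF2 and, in some comparisons, INSIG1, PTGS2 and PTGES were named after their values were seen.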

Additional observations from a re-analysis of the deposited data

Results flagged for a closer look

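By the edgeR test of the difference itself, the change at hatching was called different between IVF and in vivo embryos for 2 of the 9 genes. The share called over all genes was 4.71%, but a count that includes FADS1 cannot be set against it. The FADS1 value contains the blastocyst difference known when the genes were chosen, so it is a description. For FADS1 the IVF change was lower than the in vivo change by a log2 difference of -2.07 ± 0.35: its group means went from 270 to 145 CPM in IVF and from 48 to 115 CPM in vivo. For ELOVL6 the difference was -2.31 ± 0.55 (adjusted p = 0.0384), with means from 54.7 to 49.8 CPM in IVF and from 33.2 to 165 CPM in vivo. The ELOVL6 call was lost in most fits that left out 1 library. Summed markers of hypoblast and of cumulus and granulosa cells were also higher in in vivo hatched than in in vivo blastocyst libraries. Of the 10 cumulus and granulosa markers, 5 had no counts in in vivo hatched libraries, FSHR and LHCGR among them. These markers summed to 8.52 to 110 CPM in IVF blastocysts and 88.5 to 325 CPM in IVF hatched blastocysts. Whether cumulus or granulosa cells were present was not tested, nor was the part of either cell type in the 2 differences.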

How the results depend on the processing

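No member value that was called changed direction under any alternative: of 720 alternative values of the 9 genes, 682 kept their side of the threshold, 22 lost a call and 16 gained one, and 34 uncalled values changed sign. Between IVF and in vivo blastocysts, where 1 member was called, DESeq2, no filter and the fit of only the 2 groups gave 2, adding PLIN2, and the fit of all 13 libraries gave 0. Between hatched groups (1) DESeq2 and no filter gave 2, all 13 libraries 0, and leaving out a library 0 to 2. At in vivo hatching (2) DESeq2 and no filter gave 3, adding PLIN2, all 13 libraries 0 and only the 2 groups 1. Leaving out a library there leaves 1 in a group, so no count is given. At IVF hatching (0) DESeq2 gave 1 and no filter 2. For the difference in hatching changes (2) no filter gave 3, adding ACLY, all 13 libraries 0, and leaving out an IVF library 1 to 2. The cause was not tested. Calls among all genes, in the order of these comparisons, were 1681, 1839, 2228, 7 and 732 in the reported fits, 2944, 3001, 3562, 51 and 1879 with DESeq2, and 7, 92, 101, 0 and 1 with all 13 libraries. No filter gave 2749 between blastocysts, 2850 between hatched groups, 162 at IVF hatching and 1855 for the difference, and only the 2 groups gave 757 at in vivo hatching. Without in vivo blastocyst library 1 the first count was 320, and without in vivo hatched library 2 the second was 513. Deviations of same-numbered libraries from their group means had correlations of -0.1 to 0.04, which gave no sign of pairing by number. With groups of 2 or 3 libraries this cannot decide whether same-numbered libraries shared a batch. With a replicate block, 2 members and 1028 genes were called between IVF and in vivo blastocysts, 0 members at IVF hatching and 8 in each comparison with 4-cell embryos. No block could be fitted for in vivo hatched libraries, which share fewer than 2 numbers with any group. Against 4-cell embryos the median over all genes, -0.23 in IVF blastocysts, was 0.02 with the block. Groups of 2 or 3 libraries and low counts, as for FADS2 and ACACA in blastocysts, limit what could be detected.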
